A study of Mus musculus with 4 samples.

Results

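Potassium channel genes were described over the cell classes and neuron groups of the aged mouse hypothalamus. The genes were all symbols that start with Kcn, except Kcnq1ot1, with at least 20 counts of unique molecular identifiers (UMIs) summed over the matrices labelled control. Of 98 such symbols among the 32285 genes listed, 66 met this rule, 32 fell below it and 7 of those were at 0. Kcnv2 stood just inside with 21 UMIs and Kcns2 just outside with 18. The rule used the summed counts alone, not how they fall over cells. Of the 66 genes, 1, Kcnd3os, is not protein-coding.

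The samples were nuclei of whole hypothalamus, kept frozen, from mice about 18 months old. One pair of samples was labelled control and the other transplanted, which the design text ties to hypothalamic stem cells grown from human pluripotent cells. What the controls received, the strain and the sex were not given in the sources used here. Some titles join animal codes, and whether animals were pooled is not stated. The labels' matrices held the same nuclei. Of the 4008 and 2150 barcodes under the control label, 3997 and 2144 (99.7% of each) were also in a matrix labelled transplanted, and the potassium channel totals of such a pair differed by 0.230 and 0.200 times the variance that sampling gives. Across the other pairs of matrices that figure ran from 23.9 to 24.8, with 4 barcodes in common in each. No comparison of transplanted with control animals was therefore made. Each nucleus was used once, in library A (control replicate 1) or library B (control replicate 2). The libraries held 8779880 and 4924563 UMIs, with a median of 1813 and 2049 per nucleus. The 66 genes took 1.31% and 1.30% of these UMIs.

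Potassium channels let potassium leave or enter the cell and so set the resting potential and the shape and timing of action potentials. The pore genes fall into voltage-gated families (Kcna, Kcnb, Kcnc, Kcnd, Kcnh, Kcnq), inward rectifiers (Kcnj), K2P leak channels (Kcnk), calcium-activated channels (Kcnma, Kcnn) and sodium-activated channels (Kcnt). Auxiliary subunits such as Kcnip, Kcnab and Kcnmb change how the pores open and close. In brain, neurons use many of these families to pace and stop firing, while glial cells are known for a strongly negative resting potential and for taking up the potassium that neurons release.

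Nuclei were clustered without any Kcn gene, and clusters were named from marker genes of other families. Levels are CPM, the UMIs of a gene scaled by all UMIs of its class, given for libraries A and B or as mean ± SD over both libraries (n = 2). Levels of different genes were not set against each other, since gene length was not taken into account. Neurons made up 2961 and 1450 nuclei, oligodendrocytes 370 and 284, astrocytes 321 and 199, oligodendrocyte precursors 136 and 72, tanycytes 114 and 43, and microglia 65 and 46. Leading genes of neuron clusters included Hcrt, Pmch, Avp, Oxt and Hdc, which are known from hypothalamic neurons. Every class held most of its own markers: all of them were detected in both libraries for 5 classes, and 15 and 12 of 16 for tanycytes, where Adm was at 0 in both libraries. These counts are no support for the names, which came from the same lists. Neurons, with the most UMIs, also had all 16 oligodendrocyte and all 18 astrocyte markers detected in both libraries. The tanycyte class also held 7 of 8 ependymal markers in each library, at 1246 and 800 CPM in sum against at most 86.1 CPM in any other class, and astrocyte markers at 4750 and 4411 CPM. At a finer clustering 48 nuclei kept the name tanycyte, and 116 formed a cluster with tanycyte and ependymal genes that stayed unnamed. The part of ependymal and astrocyte RNA in the levels of this class was not tested. One cluster of 49 nuclei was led by oligodendrocyte genes such as St18 but carried all 12 neuron markers over 2-fold, and it stayed unnamed. Summed neuron markers stood at 36291 and 26375 CPM in neurons, 8423 and 901 CPM in astrocytes, 9217 and 1196 CPM in microglia, 7756 and 4255 CPM in tanycytes, 6026 and 5325 CPM in precursors and 1152 and 897 CPM in oligodendrocytes. Library A thus held more neuron RNA in astrocytes, microglia and tanycytes than library B, and its part in the levels there was not tested.

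The 3 promoters below belong to genes on which the class and neuron-group results turn, namely an astrocyte-enriched inward rectifier (Kcnj10), a leak channel of oligodendrocytes and microglia (Kcnk13), and a voltage-gated channel of precursors and of 1 neuron group (Kcnh8). They are the 250 bases before the transcription start from RefSeq on GRCm38.p6, with CG pairs in capitals. All lie on the + strand, at chr1:172340960-172341209 for Kcnj10, chr12:99964249-99964498 for Kcnk13 and chr17:52602459-52602708 for Kcnh8.
Kcnj10: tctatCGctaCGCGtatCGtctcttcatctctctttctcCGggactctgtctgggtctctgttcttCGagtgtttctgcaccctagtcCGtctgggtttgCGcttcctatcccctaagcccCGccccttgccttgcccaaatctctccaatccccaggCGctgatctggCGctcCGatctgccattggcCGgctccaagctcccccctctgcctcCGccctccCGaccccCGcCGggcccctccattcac
Kcnk13: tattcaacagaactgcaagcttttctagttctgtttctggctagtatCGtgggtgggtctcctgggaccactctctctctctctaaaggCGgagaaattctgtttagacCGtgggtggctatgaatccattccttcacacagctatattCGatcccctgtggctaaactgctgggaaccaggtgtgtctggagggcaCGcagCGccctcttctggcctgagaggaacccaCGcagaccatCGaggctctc
Kcnh8: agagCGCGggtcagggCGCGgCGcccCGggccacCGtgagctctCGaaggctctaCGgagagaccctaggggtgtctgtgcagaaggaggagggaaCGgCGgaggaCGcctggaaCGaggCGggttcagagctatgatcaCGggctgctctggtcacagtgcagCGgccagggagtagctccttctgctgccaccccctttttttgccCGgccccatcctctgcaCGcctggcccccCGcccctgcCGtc
These windows held 17, 8 and 20 CG pairs in the order shown. The median was 6 over all 32851 promoters of the table and 8 over the 69 promoters of 47 matched potassium channel genes. Motifs were searched on both strands. The TATA box (TATAAA) was in 12.4% of all promoters and 3 of the 69, and the E-box (CACGTG) in 6.02% and 4. Part of the site of the repressor REST (TTCAGCACC) was in 0.301% and 1, and a SOX site (ACAAAG) in 16.5% and 8. None of these letters were found in the 3 windows shown.

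More of the genes stood highest in neurons than in any other class. The summed level of the 66 genes was 14012 ± 15.7 CPM in neurons, 9584 ± 1205 CPM in oligodendrocyte precursors, 6725 ± 496 CPM in astrocytes, 3337 ± 47.1 CPM in oligodendrocytes, 3326 ± 1309 CPM in tanycytes and 2663 ± 1318 CPM in microglia (SD, n = 2). Kcnip4 alone held 64810 UMIs. Without it the sum was 8830 ± 497 CPM in neurons and 9435 ± 1258 CPM in precursors, so these classes no longer differed beyond their spread. The mean level was highest in neurons for 29 genes, in precursors for 15, in astrocytes for 8, in oligodendrocytes for 6, in microglia for 5 and in tanycytes for 3. All 66 genes were seen in neurons of both libraries, 40 in precursors, 33 in astrocytes, 29 in tanycytes, 24 in oligodendrocytes and 16 in microglia, in which far fewer UMIs were sampled.

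A stricter count took genes whose 2 values in a class lay above both libraries of every other class. Neurons held 19 such genes (8.93% of all 15548 genes with at least 20 UMIs), precursors 8 (3.37%), oligodendrocytes 5 (5.26%), astrocytes 4 (3.79%), microglia 3 (8.51%) and tanycytes 3 (5.51%). Of the 19 neuron genes, 7 had no UMI in any other class and stood at only 2.79 to 5.12 CPM in neurons. A single UMI in microglia or tanycytes would lie above that level, so the count of 19 shows little for these 7. The oligodendrocyte genes were Kcnq3, Kcnab1, Kcnk13, Kcna1 and Kcna6, and the astrocyte genes Kcnn2, Kcnn3, Kcnc4 and Kcnj10. In microglia they were Kcnk12, Kcnrg and Kcnj2, and those in tanycytes included Kcnh1 and Kcnh2. Kcnc4, Kcnk12, Kcnj2 and Kcnh2 were singled out after their values were seen. Kcnk12 and Kcnj2 rest on 5 and 3 UMIs in microglia, and Kcnh2 on 3 in tanycytes.

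Each class was then compared with the log-scale average of the other 5 in edgeR (quasi-likelihood test with Benjamini-Hochberg adjustment over all 6049 genes tested). Of the 66 genes, 31 passed the low-count filter and could be called. In neurons 25 were higher (28.4% of all genes tested were) and 3 lower (14.3%). In oligodendrocytes 7 were higher (19%) and 17 lower (16.3%), and in precursors 15 were higher (15.8%) and 1 lower (2.86%). In astrocytes 6 were higher (18.4%) and 2 lower (4.28%), in microglia 2 (12.3%) and 4 (9.03%), and in tanycytes 3 (11.4%) and 1 (3.44%). The median log2 difference of the 31 genes was 2.62 in neurons, 1.91 in precursors and -2.97 in oligodendrocytes, beside 0.16, 0.06 and -0.03 over all genes tested. It was 0.20, -0.19 and -0.69 in astrocytes, tanycytes and microglia, beside 0.11, 0.02 and -0.22. Of the 31 genes, 8 had no UMI in some class, and their fitted differences depend on the small count the fit adds. With those classes set to the level of 3 UMIs, the medians were 1.82, 1.43, -3.01, -0.01, 0.17 and -0.80 in the same order, so the sign turned in astrocytes and tanycytes. The oligodendrocyte median also turned, to 0.34 with doublet calls kept and to 0.54 at a finer clustering, beside 0.10 and 0.22 over all genes. The 8 genes with no UMI in some class included Kcna1, Kcna6, Kcnc1, Kcnh8, Kcnj6, Kcnk2 and Kcnn3.

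**Figure D1:**
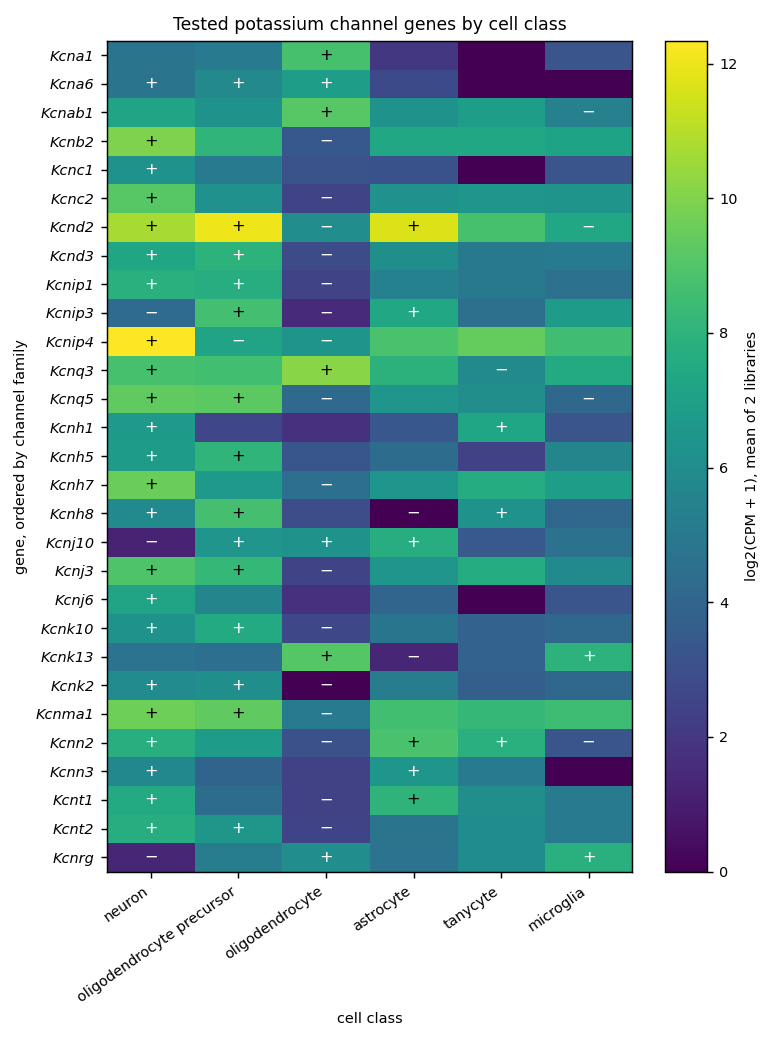
Mean level of 29 of the tested genes in 6 cell classes, as log2(CPM + 1) over 2 libraries, with genes ordered by channel family on the vertical axis and classes on the horizontal axis. Brighter cells are higher levels, and plus and minus signs mark genes called higher or lower. Minus signs fill much of the oligodendrocyte column, where Kcnq3, Kcnk13, Kcnab1 and Kcna1 are bright.

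The transient A-type family, Kcnd pores with their calcium-binding Kcnip partners, was spread over neurons, precursors and astrocytes. Kcnip4 stood at 5545 and 4819 CPM in neurons of libraries A and B, and at 1154 and 195 CPM in tanycytes, the next class. It was higher in neurons by a log2 difference of 4.57 (SE 0.33, edgeR adjusted p = 1.41e-12). Summed neuron markers in tanycytes stood at 7756 and 4255 CPM, and the part of neuron RNA in the tanycyte level of Kcnip4 was not tested. In precursors it stood at 149 ± 52.3 CPM and was the 1 gene called lower in that class (log2 difference -1.74, SE 0.52, edgeR adjusted p = 0.015), a call that was lost without the library term (adjusted p = 0.12), in nuclei with at least 1000 UMIs (0.097), and with doublet calls kept and the unnamed cluster left out (0.23).

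The pore Kcnd2 had another order. It stood at 3622 and 4612 CPM in precursors, 3085 and 3620 CPM in astrocytes, against 1578 and 1817 CPM in neurons. The lower precursor value lay just above the higher astrocyte value, and both classes lay above neurons in each library. In oligodendrocytes it stood at 66.0 ± 0.565 CPM. Kcnd2 was higher in precursors (log2 difference 3.18, SE 0.34, edgeR adjusted p = 7.94e-09) and in astrocytes (2.85, SE 0.34, 4.15e-08). It was lower in oligodendrocytes (-3.93, SE 0.56, 7.16e-07) and in microglia (-2.66, SE 0.57, 6.78e-04), where library A held 19 UMIs and library B none. The related pore Kcnd3 stood at 255 ± 42.9 CPM in precursors, against 154 ± 27.6 CPM in neurons, and at 69.2 ± 0.562 CPM in astrocytes, so the astrocyte level of Kcnd2 was not seen in Kcnd3.

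The other Kcnip genes tested went in different directions. Kcnip1 stood at 224 ± 54.3 CPM in neurons and 205 ± 26.9 CPM in precursors, with 41.4 ± 9.92 CPM in astrocytes, and was called higher in neurons (log2 difference 2.90, SE 0.25, edgeR adjusted p = 3.84e-11). Kcnip3, a calcium sensor also known as a repressor of transcription, stood at 340 and 468 CPM in precursors, against 115 and 207 CPM in astrocytes and only 14.1 and 23.4 CPM in neurons. It was higher in precursors (log2 difference 4.04, SE 0.30, edgeR adjusted p = 2.54e-12) and in astrocytes (2.41, SE 0.33, 5.14e-07). In neurons it was called lower (-1.34, SE 0.55, edgeR adjusted p = 0.048), but that call did not hold: in nuclei with at least 1000 UMIs the difference was 0.15 (adjusted p = 0.94), and without the library term the adjusted p was 0.11. All 5 tested genes of this family were called lower in oligodendrocytes (16.3% of all genes tested were). Over all families, 17 of 31 genes were lower there, against 2 of 33 with doublet calls kept and 3 of 37 at a finer clustering. Over all genes tested, the lower calls there also fell, from 986 of 6049 to 409 of 6052 and 415 of 6623.

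Among delayed rectifiers, the tested Kcnb and Kcnc genes stood high in neurons. Kcnc2, a pore that lets neurons fire fast, stood at 571 and 562 CPM in neurons, and at most at 136 CPM in any other class and library. Its log2 difference was 3.73 (SE 0.27, edgeR adjusted p = 1.61e-12). All 4 tested Kcnb and Kcnc genes were called higher in neurons (28.4% of all genes tested were), and 2 were lower in oligodendrocytes (16.3%).

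The M-current family Kcnq, which holds neurons back from repeated firing, split between classes. Kcnq5 stood at 658 and 636 CPM in neurons and 545 and 662 CPM in precursors, and these overlapped. It was higher in neurons (log2 difference 3.32, SE 0.32, edgeR adjusted p = 5.00e-10). Kcnq3 departed from it: Kcnq3 stood at 1061 and 1210 CPM in oligodendrocytes, 362 and 486 CPM in neurons and 391 and 377 CPM in precursors. It was higher in oligodendrocytes by 2.54 (SE 0.25, edgeR adjusted p = 6.05e-10) and lower in tanycytes (-2.78, SE 0.49, 6.28e-05), where it stood at 56.9 ± 25.2 CPM. Kcnq3 was also called higher in neurons, as the comparison is with the average of the other classes and not with the highest.

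The Kcnh genes, relatives of the ether-a-go-go channel of flies, differed in the class where they stood highest. Kcnh7 stood at 759 ± 94.6 CPM in neurons and 200 ± 34.3 CPM in tanycytes (log2 difference in neurons 3.24, SE 0.29, edgeR adjusted p = 1.12e-10). Kcnh8 stood at 436 and 397 CPM in precursors, against 53.8 and 63.6 CPM in neurons. In astrocytes it had no UMI in either library, where 3 UMIs would be 9.08 and 17.2 CPM. At least 1 UMI of Kcnh8 was seen in 35.3% ± 1.10 of precursor nuclei and in 0% of astrocyte nuclei, and after each nucleus was thinned to 500 UMIs in 15.4% ± 0.116 and 0%. Kcnh8 was called higher in precursors (log2 difference 5.57, SE 0.40, edgeR adjusted p = 2.54e-12), a size that depends on its 0 in astrocytes. It was called lower in astrocytes (adjusted p = 4.04e-04), with no size given because of the 0. That astrocyte call was lost in nuclei with at least 1000 UMIs (adjusted p = 0.058), in nuclei with few neuron marker UMIs and in the transplanted-labelled deposits of the same nuclei (adjusted p = 1 in both).

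Kcnh5 stood at 250 and 285 CPM in precursors, against 120 and 105 CPM in neurons. Its log2 difference in precursors was 3.67 (SE 0.40, edgeR adjusted p = 1.02e-08). Kcnh1 stood at 125 and 176 CPM in tanycytes, on 15 and 9 UMIs, and at 75.7 and 118 CPM in neurons, so each tanycyte value lay above both neuron values. It was called higher in tanycytes (log2 difference 3.69, SE 0.61, edgeR adjusted p = 2.56e-05). With non-neuron nuclei restricted to those with at most 2 UMIs of the 12 neuron markers, the difference was 3.15 but the adjusted p was 0.59. Kcnh1 overlaps Hhat on the other strand, which stood at 22.2 ± 3.81 CPM in tanycytes, and the sources used here do not say whether counting used strand.

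**Figure D2:**
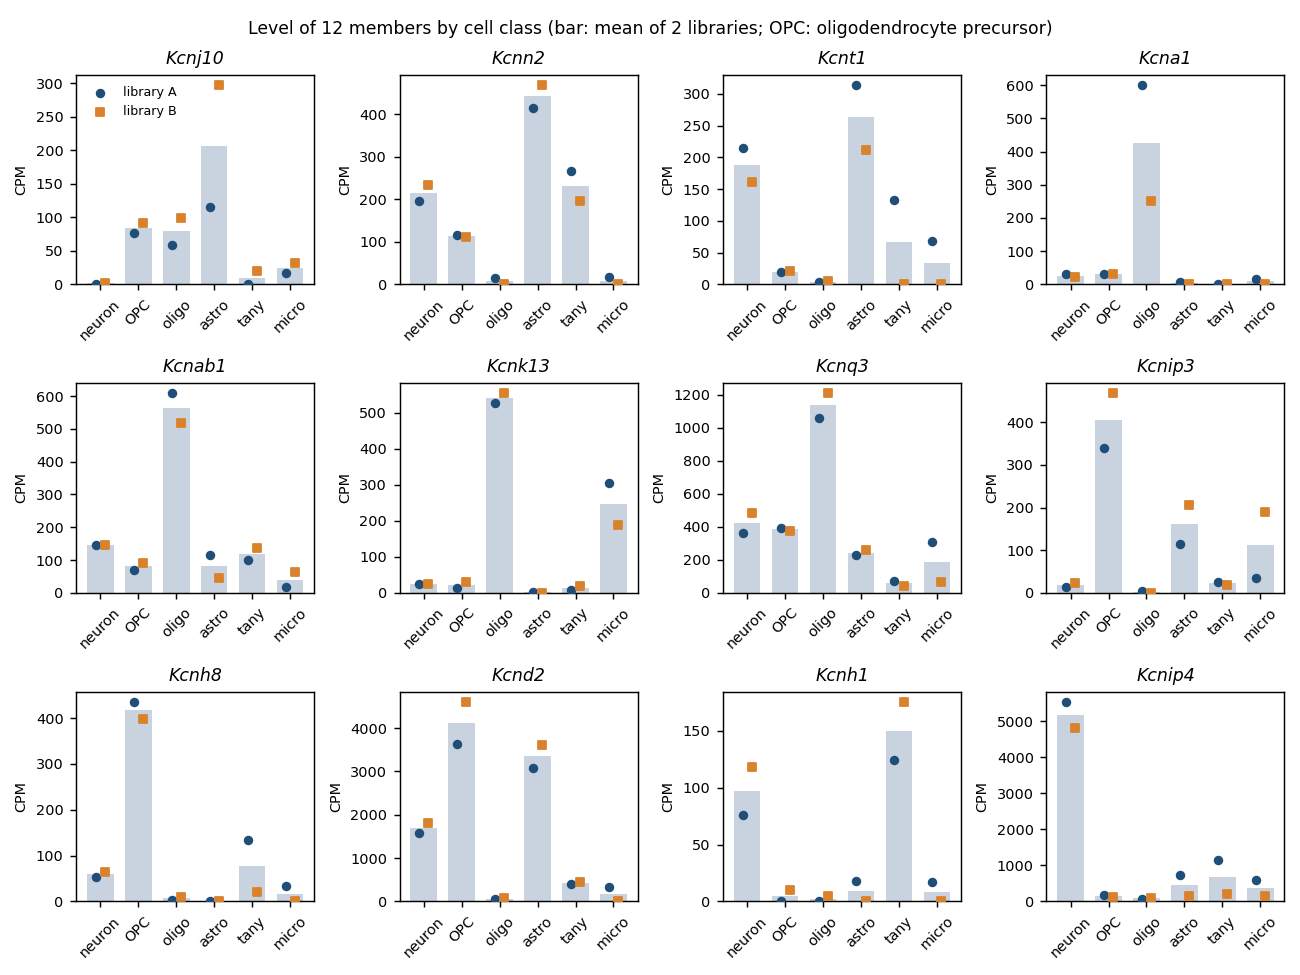
Level in CPM of 12 genes over 6 cell classes, with a bar for the mean of 2 libraries and a point for each library. Kcnip4 stands highest in neurons, Kcnh8 and Kcnip3 in oligodendrocyte precursors, Kcnk13 and Kcna1 in oligodendrocytes, and Kcnj10 in astrocytes, with its 2 points far apart.

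Among inward rectifiers, Kcnj10 and Kcnj16 stood higher in glial classes than in neurons, and Kcnj3 and Kcnj6 stood highest in neurons. Kcnj10, the main potassium-buffering channel of astrocytes, stood at 115 and 298 CPM in astrocytes, 76.9 and 91.6 CPM in precursors, 58.4 and 99.7 CPM in oligodendrocytes and 1.04 and 1.45 CPM in neurons. Library B lay far above library A in astrocytes, and both astrocyte values lay above every other class. Kcnj10 was higher in astrocytes (log2 difference 3.66, SE 0.33, edgeR adjusted p = 8.17e-11) and lower in neurons (-4.94, SE 0.95, 7.14e-05). In the transplanted-labelled deposits the neuron difference was -4.46 with an adjusted p of 1.

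Kcnj16, which forms mixed channels with Kcnj10, was too thinly counted to be tested. It stood at 44.1 ± 2.48 CPM in astrocytes, 48.5 ± 32.3 CPM in precursors, with 0.556 ± 0.236 CPM in neurons, on 22, 11 and 6 UMIs. The G-protein-gated genes, through which transmitters slow neurons, stood highest in neurons. Kcnj3 stood at 542 and 432 CPM in neurons, 314 and 285 CPM in precursors and 0 and 9.49 CPM in oligodendrocytes, and was higher in neurons (log2 difference 2.92, SE 0.25, edgeR adjusted p = 3.50e-11). Kcnj6 stood at 147 ± 45.2 CPM in neurons and 48.5 ± 32.3 CPM in precursors, and was higher in neurons (4.94, SE 0.45, edgeR adjusted p = 1.90e-10), a size that depends on its 0 in tanycytes. Kcnj9 stood at 24.1 ± 10.2 CPM in neurons. The genes of ATP-sensitive channels were hardly counted: Kcnj11 held 31 UMIs, at 2.49 ± 0.225 CPM in neurons, and Kcnj8 held 2 and fell below the rule. Their receptor subunit Abcc8 stood at 10.7 ± 3.95 CPM in neurons.

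In oligodendrocytes a small set of genes stood above every other class, and how many others were lower depended on the make-up of the class. The 7 higher and 17 lower calls among 31 tested genes became 9 and 2 of 33 with doublet calls kept. They became 11 and 3 of 37 at a finer clustering, and 7 and 6 of 30 in nuclei with few neuron marker UMIs. Over all genes tested the lower calls fell too, from 986 of 6049 to 409 of 6052, 415 of 6623 and 537 of 6341 in the same order. The higher calls over all genes were 1147 at first, then 1004, 1324 and 1316. With the unnamed nuclei left out of the first pair of settings, 14 of 33 and 18 of 34 genes were lower. Over all genes 743 of 6130 and 975 of 6139 were. Kcnk13, a K2P channel known in microglia, stood at 529 and 555 CPM in oligodendrocytes, 307 and 189 CPM in microglia and 24.2 and 25.8 CPM in neurons. At least 1 UMI was seen in 28.7% ± 2.30 of oligodendrocyte nuclei (21.2% ± 0.599 after thinning to 500 UMIs) against 0.156% ± 0.220 of astrocyte nuclei (0% after thinning), at median depths of 669 and 683.5 UMIs against 765 and 804. Kcnk13 was higher in oligodendrocytes (log2 difference 4.93, SE 0.25, edgeR adjusted p = 8.04e-17) and in microglia (3.07, SE 0.50, 1.63e-05), where summed oligodendrocyte markers were 852 and 189 CPM against 21510 and 24101 CPM in oligodendrocytes. It was lower in astrocytes (-4.70, SE 0.94, 2.08e-04), a call lost in nuclei with at least 1000 UMIs and in the transplanted-labelled deposits (adjusted p = 1 in both).

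Kcna1 and Kcna6, pores of the Shaker family that in axons lie beside the node of Ranvier, and their beta subunit Kcnab1 also belonged to this set, as did Kcnq3 above. Kcna1 stood at 602 and 252 CPM in oligodendrocytes and 30.1 and 21.7 CPM in neurons, and so was higher in oligodendrocytes in both libraries although these differed more than 2-fold. Its log2 difference was 6.53 (SE 0.35, edgeR adjusted p = 5.59e-16), a size that depends on its 0 in tanycytes. Kcna6 stood at 72.9 and 161 CPM in oligodendrocytes and 15.8 and 35.7 CPM in neurons, and was called higher in oligodendrocytes (edgeR adjusted p = 6.58e-08). Kcnab1 stood at 609 and 517 CPM in oligodendrocytes, 146 and 145 CPM in neurons and 17.0 and 62.9 CPM in microglia. It was higher in oligodendrocytes (log2 difference 2.97, SE 0.23, edgeR adjusted p = 1.43e-12) and lower in microglia (-2.56, SE 0.69, edgeR adjusted p = 0.0061). Kcna2, another Shaker pore, did not follow: it stood at 22.8 ± 1.31 CPM in oligodendrocytes and 27.2 ± 7.51 CPM in neurons, and was not tested.

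Of the 17 genes lower in oligodendrocytes, the 3 with the smallest p that moved alike in both libraries were Kcnma1, Kcnj3 and Kcnd2. Kcnma1, the large-conductance calcium-activated channel, stood at 43.8 and 19.0 CPM in oligodendrocytes and 745 and 811 CPM in neurons (log2 difference -3.66, SE 0.40, edgeR adjusted p = 4.83e-09). Kcnj3 had a difference of -5.28 (SE 0.69, edgeR adjusted p = 1.65e-07). The calls of Kcnj3 and Kcnd2 were lost with doublet calls kept, and that of Kcnj3 also at a finer clustering. In both settings most of the 49 unnamed nuclei joined the oligodendrocytes, but the make-up of other classes changed as well. With doublet calls kept, 48 of the unnamed nuclei joined, and the differences of Kcnj3 and Kcnd2 were -0.38 and -0.52 with adjusted p of 0.42 for both. At a finer clustering 47 joined, and the difference of Kcnj3 was -0.13 (adjusted p = 0.84). In oligodendrocytes with at most 2 UMIs of the neuron markers, Kcnj3 was at -2.22 with an adjusted p of 1.

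Of the calcium- and sodium-activated genes, Kcnn2, Kcnn3 and Kcnt1 were called higher in both astrocytes and neurons. Kcnn2, a small-conductance channel that follows bursts of firing, stood at 415 and 470 CPM in astrocytes, 266 and 195 CPM in tanycytes and 196 and 233 CPM in neurons. Tanycytes and neurons overlapped, and astrocytes lay above both. Kcnn2 was higher in astrocytes (log2 difference 3.13, SE 0.28, edgeR adjusted p = 5.92e-11) and in tanycytes (1.80, SE 0.41, 0.0016), and lower in microglia (-3.82, SE 0.98, 0.0042), where 1 UMI was counted. In nuclei with at least 1000 UMIs the tanycyte difference was 0.91 with an adjusted p of 0.30. Kcnn3 stood at 87.8 ± 30.0 CPM in astrocytes, against 53.9 ± 11.7 CPM in neurons.

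Kcnt1 stood at 315 and 212 CPM in astrocytes, against 215 and 160 CPM in neurons, and these classes overlapped. It was higher in astrocytes (log2 difference 3.07, SE 0.32, edgeR adjusted p = 2.16e-09). The related Kcnt2 stood at 203 ± 12.6 CPM in neurons and 25.7 ± 36.4 CPM in astrocytes, and was higher in neurons (2.85, SE 0.28, edgeR adjusted p = 4.16e-10). The astrocyte level of Kcnt1 was thus not shared by Kcnt2. The leak channel Kcnk2 stood at 60.9 ± 18.8 CPM in neurons and 69.0 ± 11.2 CPM in precursors, which overlapped.

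Microglia had the lowest mean sum of the 66 genes, which overlapped that of tanycytes and of oligodendrocytes. Besides Kcnk13, Kcnrg was higher there, at 204 and 252 CPM on 12 and 8 UMIs, against 80.2 and 52.2 CPM in oligodendrocytes and 1.04 and 1.93 CPM in neurons (log2 difference 2.87, SE 0.50, edgeR adjusted p = 4.79e-05). Kcnrg encodes a regulator of Kv channels and not a pore. It lies within Dleu2 on the opposite strand, and Dleu2 stood at 1722 ± 412 CPM in microglia, 560 ± 147 CPM in oligodendrocytes and 5.38 ± 0.455 CPM in neurons, so that both genes stood highest in microglia, next in oligodendrocytes and lowest in neurons. Since it is not given whether counting used strand, reads of these genes cannot be told apart here. Of the 66 genes, 29 overlap another gene listed in the files and 8 a protein-coding one. In tanycytes the third higher gene was Kcnh8, at 133 and 19.5 CPM, a pair of values far apart, and it was singled out after its values were seen.

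The other genes of potassium handling came from a list of 50 partners, of which 35 were tested. In neurons 19 were higher and 4 lower, in oligodendrocytes 10 and 11, in astrocytes 9 and 3, in precursors 8 and 3, in microglia 3 and 8, and in tanycytes 3 and 1. As over all genes tested 28.4%, 19%, 18.4%, 15.8%, 12.3% and 11.4% were higher in these classes in that order, the higher counts in tanycytes and microglia lie near or below the background. The shares of all genes called lower were 14.3%, 16.3%, 4.28%, 2.86%, 9.03% and 3.44% in the same order. Dpp10 and Dpp6, which carry Kcnd pores to the membrane, stood at 1483 ± 153 and 1150 ± 405 CPM in neurons and 1495 ± 70.2 and 804 ± 475 CPM in precursors. In astrocytes, where Kcnd2 was high, they stood at 225 ± 311 and 149 ± 16.1 CPM. Both were called higher in neurons and in precursors and lower in oligodendrocytes. Cntn2, an adhesion protein beside Shaker channels in myelinated axons, stood at 266 ± 108 CPM in oligodendrocytes and was higher there (log2 difference 7.40), while its partner Cntnap2 stood at 81.6 ± 12.2 CPM and was lower there (-2.99). The size for Cntn2 may depend on microglia, where its fitted difference was -6.04 with an SE of 6038677. The astrocyte water channel Aqp4 stood at 154 ± 50.4 CPM in astrocytes and was higher there (log2 difference 7.82), as was Kcnj10. Aqp4 is on the marker list that named the class, so its level there is no result. Its size depends on its 0 in precursors and microglia.

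Neurons were next split by transmitter. GABA neurons were nuclei with a UMI of Gad1, Gad2 or Slc32a1 and none of Slc17a6, and glutamate neurons the reverse, so that these 4 genes are no result. They numbered 1078 and 561 nuclei, and 767 and 323. Of 34 genes tested in edgeR, 3 were higher in GABA neurons (1.28% of all 6715 genes tested were) and 3 lower (2.11%), with a median log2 difference of -0.22 beside 0.01 over all genes. Without the library term the count was 0 of 34 (5 at an unadjusted p under 0.05) and with DESeq2 it was also 0 (6 at an unadjusted p under 0.05). Calls fell over all 6715 genes too. Without the library term 11 were higher and 17 lower, and with DESeq2 24 and 48, against 86 and 142 in the main fit.

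The genes higher in GABA neurons were a sodium-activated pore and auxiliary subunits. Kcnt2 stood at 292 and 269 CPM in GABA neurons and 121 and 144 CPM in glutamate neurons (log2 difference 1.07, SE 0.15, edgeR adjusted p = 5.06e-07). Kcnmb2, a beta subunit that inactivates large-conductance channels, stood at 90.3 and 92.7 CPM against 37.4 and 58.9 CPM (0.97, SE 0.19, edgeR adjusted p = 7.19e-04). Kcnab1 stood at 171 and 184 CPM against 126 and 115 CPM (0.50, SE 0.15, edgeR adjusted p = 0.048). For each of the 3, both GABA values lay above both glutamate values. The Kcnab1 call was lost under most of the alternative settings, among them another scaling (edgeR adjusted p = 0.062) and assignment by cluster in place of nucleus (0.63, log2 difference 0.24).

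Another beta subunit of large-conductance channels went the other way. Kcnmb4 stood at 6.73 and 5.94 CPM in GABA neurons and 17.5 and 21.2 CPM in glutamate neurons (log2 difference -1.57, SE 0.39, edgeR adjusted p = 0.0090). Kcna1 stood at 25.1 and 13.1 CPM against 39.1 and 36.8 CPM (-0.93, SE 0.24, edgeR adjusted p = 0.016). Kcnk13 stood at 19.5 and 14.3 CPM against 31.2 and 33.1 CPM (-0.90, SE 0.25, edgeR adjusted p = 0.023). Kcna1 and Kcnk13 are high in oligodendrocytes, whose summed markers were 152 and 145 CPM in GABA neurons and 99.0 and 119 CPM in glutamate neurons. The part of oligodendrocyte RNA in these 2 differences was not tested. Assigned by cluster, Kcnk13 was at -0.31 (adjusted p = 0.70). Kcnip4 stood at 3687 and 3442 CPM in GABA neurons and 7349 and 6768 CPM in glutamate neurons without overlap, yet it did not pass the test (log2 difference -1.02, SE 0.50, edgeR adjusted p = 0.46).

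**Figure D3:**
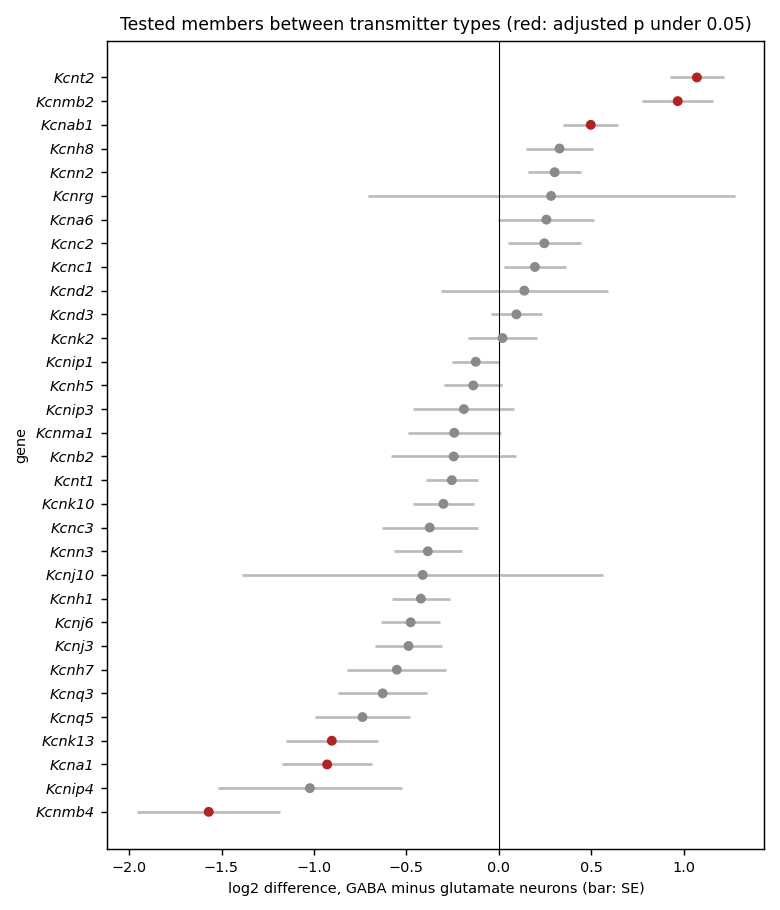
Log2 difference between GABA and glutamate neurons of 32 of the 34 tested genes, with bars for the standard error and red points for an edgeR adjusted p under 0.05. Kcnt2, Kcnmb2 and Kcnab1 lie to the right of 0 and Kcnmb4, Kcna1 and Kcnk13 to the left.

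Within neurons, 8 clusters held at least 20 nuclei in both libraries. They are called by their leading genes, and since clusters come from the same nuclei, their levels are a description with no test. The levels of 36 genes with at least 200 UMIs in these clusters were compared. A group led by Vipr2, Prok2, Syt10 and Rorb, with 87 and 53 nuclei, departed furthest. Its Kcnh8 stood at 825 and 771 CPM, and at most 60.1 and 89.5 CPM in any other group, a ratio of 17.8 to the median group. Kcnc2 stood at 2291 and 1665 CPM in this group, against at most 680 and 628 CPM elsewhere. Kcnh5 (341 and 315 CPM) and Kcnma1 (1172 and 1279 CPM) were also highest here.

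The same group was lowest for several firing-control genes. Kcnq5 stood at 35.9 and 50.8 CPM, against at least 147 and 197 CPM in every other group. Kcnj6 stood at 22.1 ± 2.56 CPM, Kcnip1 at 27.2 ± 4.62 CPM and Kcnt2 at 35.3 ± 7.57 CPM. Kcnip4 stood at 1828 ± 173 CPM, and Kcna1 had no UMI. In all, 4 of the 36 genes were above both libraries of every other group (5.25% of the 7564 genes with as many UMIs) and 7 were below them (5.95%). The precursor-enriched pair Kcnh8 and Kcnh5 was thus highest among neurons in this group. Of its nuclei, 86 were GABA neurons by the rule above and 0 were glutamate neurons.

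The group led by Myo5b, Cpne9 and Col19a1, with 213 and 92 nuclei and mostly Slc17a6-marked nuclei (165 against 5), went the other way for some of these genes. It was highest for Kcnip4 and lowest for Kcnc2 and Kcnh5, but among the lowest groups it also joined the Vipr2 group for Kcnt2 and Kcnip1. Kcnip4 stood at 11564 and 10396 CPM, against at most 6494 and 4725 CPM elsewhere. Kcnj3 stood at 1017 ± 195 CPM and Kcnk9, a leak channel, at 46.9 ± 2.64 CPM, both above every other group. Kcnc2 stood at 26.3 and 0 CPM, against at least 230 and 56.3 CPM elsewhere, so the highest and lowest groups for this gene were the 2 just described. Kcnb2 (175 ± 52.3 CPM), Kcnh5 (25.8 ± 19.3 CPM), Kcnab1 (29.1 ± 6.64 CPM) and Kcnn3 (7.04 ± 7.30 CPM) were lowest here, and Kcnmb2 had no UMI. Of 36 genes, 3 were above (3.19% of all) and 5 below (5.55%) every other group.

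**Figure D4:**
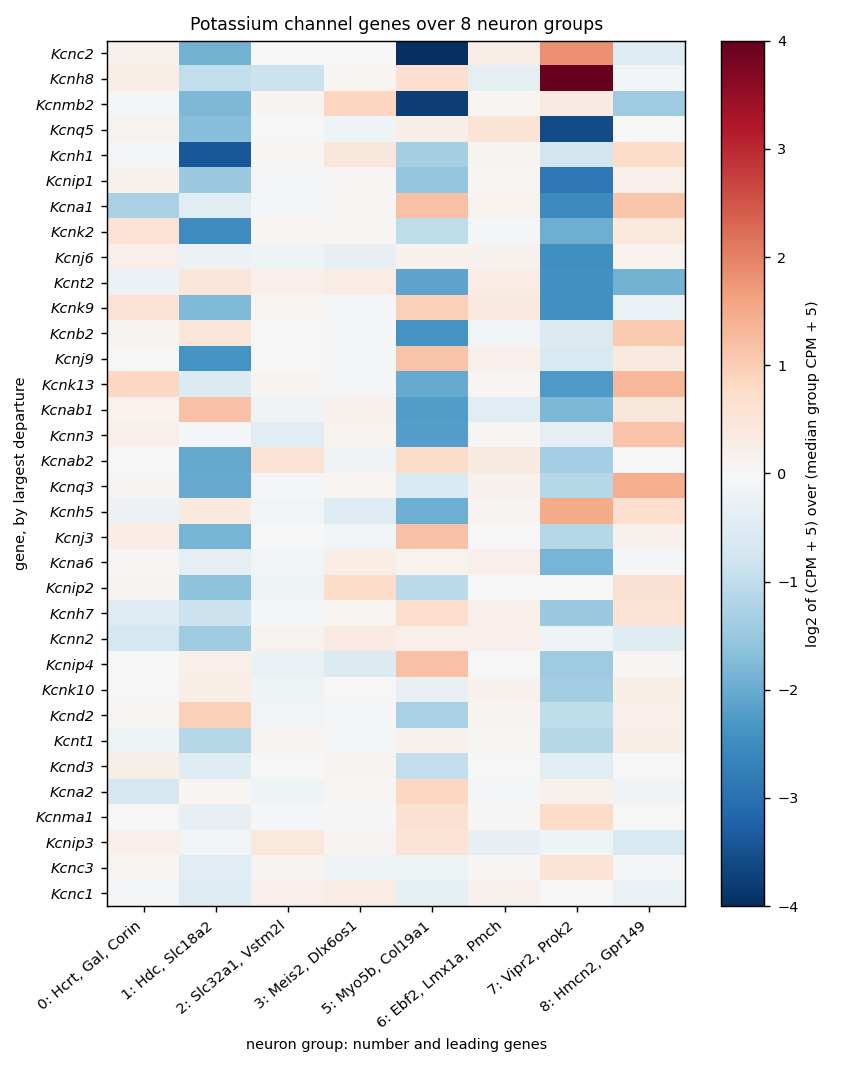
Log2 of the level (CPM + 5) in each of 8 neuron groups over the level in the median group, for 34 of the 36 genes with at least 200 UMIs, groups being named by number and leading genes. The column led by Vipr2 and Prok2 and the column led by Myo5b stand out in both directions, with Kcnh8 and Kcnc2 high and Kcnq5 low in the first, and Kcnip4 and Kcnj3 high and Kcnc2 and Kcnmb2 low in the second.

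The group led by Hmcn2 and Gpr149, with 327 and 99 nuclei, was high in 4 genes (1.71% of all) and lowest, apart from the rest, in none (1.2% of all). Kcnq3 stood at 756 and 1216 CPM there, against at most 346 and 488 CPM elsewhere. Kcnb2 stood at 1696 and 2203 CPM, Kcnn3 at 92.5 and 138 CPM, and Kcnk13 at 44.3 and 67.4 CPM. Each of these values lay above every other group in both libraries. Oligodendrocytes were the highest class for Kcnq3 and Kcnk13. Kcnq3 stood at 986 ± 326 CPM in this group against 1136 ± 105 CPM in oligodendrocytes. Kcnk13 stayed far below, at 55.9 ± 16.3 against 542 ± 18.7 CPM.

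The histamine-gene group led by Hdc and Slc18a2, with 51 and 22 nuclei, was also led by Hbb-bs, a gene of red blood cells, and its median UMIs were 2997 and 998. At a finer clustering it kept 22 and 6 nuclei, too few for a recheck. It held Kcnd2 at 3583 and 2982 CPM, against at most 1847 and 2021 CPM in other groups. Kcnab1 was also highest there, at 364 ± 77.1 CPM. These were 2 of 36 genes (6.13% of all), and 2 were lowest (6.33%): Kcnn2 at 78.2 ± 31.1 CPM and Kcnh1 at 2.95 ± 4.17 CPM. In library B of this group 2 UMIs amount to 56.3 CPM. Kcnn2 stood there at 56.3 CPM and Kcnh1 at 0, so both low values in that library rest on very few UMIs. The group led by Meis2 and Dlx6os1, with many GABA-marked nuclei (411 against 41), was above every other group for 2 genes (0.264%) and below for none (0.159%). These were Kcnmb2 at 120 ± 13.2 CPM, the direction seen between transmitter types, and Kcnn2 at 276 ± 16.6 CPM. The groups led by Hcrt (0.608% of all genes above, 0.0793% below), by Slc32a1 (0.873% and 0.145%) and by Ebf2 (0.476% and 0.145%) had no gene apart from all others in either direction.

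**Figure D5:**
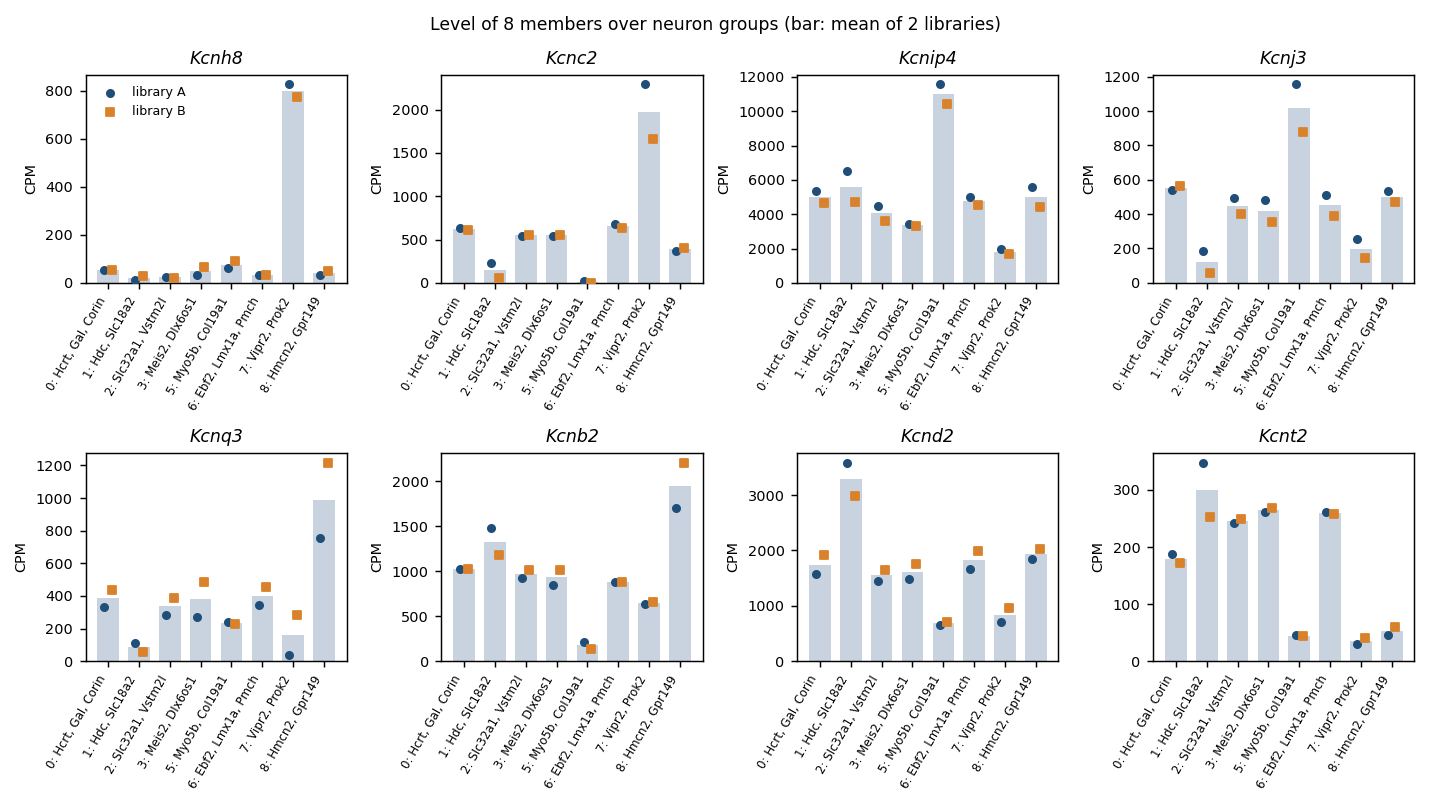
Level in CPM of 8 genes over the neuron groups, with a bar for the mean of 2 libraries and a point for each library. Kcnh8 and Kcnc2 have their tallest bars in the group led by Vipr2 and Prok2, and Kcnip4 and Kcnj3 in the group led by Myo5b.

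At a finer clustering a group led by Avp and Oxt reached 20 nuclei in both libraries (29 and 23). Its Kcnip4 level of 22432 ± 1335 CPM and its Kcnh1 level of 793 ± 175 CPM were the highest of all neuron groups. Kcnn2 stood at 21.9 ± 2.28 CPM and Kcnj3 at 82.5 ± 16.3 CPM, the lowest of all. These neurons are known to fire in bursts and to release their peptides into blood and brain.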

How the data were processed

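Nuclear RNA was read with the Chromium 3' method, per the labels' protocols. The deposited values are raw counts of UMIs per gene and barcode. Cell Ranger 5.0.1 appears in the submitters' processing notes, beside GRCh38, a human build, while the gene identifiers are of mouse. For the mouse build, the choice of barcodes and the use of intronic reads or strand, the sources used here give nothing. The pairs of deposits were compared by barcode and by gene totals, and only the control-labelled matrices were used further. No nucleus had fewer than 300 genes or over 5% of its counts from mitochondria, so these filters removed none. Scrublet in scanpy 1.11.5 called 6 nuclei (0.150%) in library A, too few to have worked, and 42 (1.95%) in library B, and these were removed. Doublets may remain in both.

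The other 6110 nuclei were clustered on 40 principal components of 3000 variable genes without Kcn genes, after scaling to 10000 counts and taking logs, into 15 clusters (leiden, resolution 1, 20 neighbours). A cluster took a class name from at least 3 class markers among its 10 leading genes by fold (at least 50 UMIs, prior 5 CPM). Neuron clusters needed 6 or more of 12 neuron markers at over 2-fold the mean of named clusters, with fewer than 2 leading markers of another class. Names mean neuron-like and so on.

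Counts were summed per library and class, since nuclei are not replicates, and fitted in edgeR 4.0.16 (R 4.3.3, TMM, low-count filter, quasi-likelihood) with class and library as terms, with 5 residual degrees of freedom for classes and 6 for transmitter types. The threshold was a Benjamini-Hochberg adjusted p of 0.05 over all genes tested. The library term is the replicate block, since all classes of a library come from the same tissue. P-values measure the spread that remains between these 2 libraries within classes, once a shift shared by all classes is taken out. This spread may be technical. The test was checked on simulated data. Alternatives included DESeq2 1.42.0, other scaling, filters, clusterings and the transplanted-labelled deposits. Shares of nuclei and floors of 3 UMIs cover counting error only.

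Named genes were, per class, up to 5 higher (8 in neurons) and 3 lower with the smallest p that moved alike in both libraries, up to 6 per direction between transmitter types, the 15 largest ratios of highest to median neuron group, 18 fixed channels and the genes next to the UMI minimum. The genes, lists and rules were chosen with earlier results of these data known. Promoters came from RefSeq on GRCm38.p6. Some genes are not reported here or drawn in the figures, though they stay in the fits and counts.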

Additional observations from a re-analysis of the deposited data

How the results depend on the processing

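Of 82 recounts of called genes under alternative settings, 68 stayed within 1.5 times the main count and 14 did not. These are counts and not shares, and the number of genes tested differed between settings. With no low-count filter, 45 of 66 genes were called in neurons against 28 of 31. Over all genes, 4677 were higher and 530 lower of 23856, against 1720 and 866 of 6049. In nuclei with at least 1000 UMIs, 22 genes were tested between classes and 25 between transmitter types. Of the 22, 14 were called in neurons, 4 in astrocytes against 8, 10 in oligodendrocyte precursors against 16 and 2 in tanycytes against 4. Of the 25, 1 was called against 6. Of all 2872 genes tested, 822 were higher and 354 lower in neurons, and 405 and 114 in astrocytes. In precursors 442 and 127 were, and in tanycytes 277 and 151. Between transmitter types 34 and 56 of 3595 were. Kcnip3 in neurons reversed to a log2 difference of 0.15. Without the replicate block and with DESeq2, 0 of 34 genes were called between transmitter types. Of all 6715 genes, 11 were higher and 17 lower without the block, and 24 and 48 with DESeq2, against 86 and 142. With doublet calls kept, 11 of 33 genes were called in oligodendrocytes against 24 of 31, of which 2 against 17 were lower. Over all genes, 1004 were higher and 409 lower of 6052, against 1147 and 986 of 6049. At clustering resolution 2, of 37 genes tested 14 were called in oligodendrocytes, 22 in astrocytes and 15 in microglia against 6. Of all 6623 genes there, 1324 were higher and 415 lower in oligodendrocytes, 1275 and 941 in astrocytes and 802 and 840 in microglia. The main fit had 1113 and 259 of 6049 in astrocytes and 744 and 546 in microglia. The following settings were chosen after seeing the data. Without the unnamed cluster, resolution 2 gave 15 of 34 in astrocytes, beside 1251 higher and 726 lower of all 6139 genes. With non-neuron nuclei of few neuron marker UMIs, 13 of 30 were called in oligodendrocytes, beside 1316 and 537 of all 6341 genes. Depth or clustering left too few nuclei for microglia at 1000 UMIs, tanycytes at resolution 2 and precursors of few neuron marker UMIs, so these gave no value. Of 544 recomputed log2 differences of named genes, 503 kept their direction and call, 40 kept their direction and lost the call, and 1 reversed. Leaving out a library left 1 sample per class and no test. In the remaining library 92 of 92 log2 ratios kept their sign. That was fixed in advance, since these genes were named only if they moved alike in both libraries. Of 45 recomputed ratios of highest to median neuron group, 12 moved by more than 1 SD; the Kcnip4 ratio was 2.25 and became 5.05 at resolution 2, with the Avp and Oxt group. The Kcnh8 ratio ran from 14.5 in library B to 25.7 in library A. Thinly sampled classes limit these values most: 3 UMIs amount to 51.1 and 94.4 CPM in microglia.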
